A study of Mus musculus with 63 samples.

Results

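Insulin, insulin-like growth factor 1 and the proteins that carry or brake their signal were followed through 4 sorted populations of mouse cortical cells after a burn or a sham injury. The 10 genes described were taken by symbol from the 56980 genes listed in each count table: Igf1, a ligand; Insr and Igf1r, its receptor tyrosine kinases; Grb7, Grb10 and Grb14, a family of adaptor proteins; Irs1 and Irs2, the main receptor substrates; Igf2r, a receptor without kinase activity; and Igfbp2, a secreted binding protein. Grb14 was chosen by its measured counts in the burn and sham CD11b-positive libraries, so every burn against sham value from those libraries, and every comparison of Grb14 with them, is a description and carries no test. The libraries left out by the study, those of mouse 3 in all 4 populations and the double-positive library of mouse 8, were left out here too.

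Female C57BL/6J mice, 12 weeks old when they arrived, all received the same 2 viruses in the motor cortex under anaesthesia, 1 carrying eGFP behind the CaMKII promoter and 1 carrying mRuby2 behind the mDlx enhancer. The burn group then had a full thickness burn over 7 to 8% of the body surface on a shaved flank, and the sham group was shaved only. The cells were sorted 5 weeks later. CaMKII positive cells (eGFP alone; 4 burn and 6 sham mice) and double-positive cells (eGFP and mRuby2; 9 burn and 7 sham mice) came from the motor cortex, and ACSA2-positive cells (9 burn and 8 sham mice) and CD11b-positive cells (8 burn and 7 sham mice) from the cortex behind it, stained with antibodies to surface antigens of astrocytes and of microglia. The mouse was the replicate within a population, so the burn against sham p-values measure the spread between mice. Many mice gave libraries to several populations. The main fits between populations had no mouse term, so their p-values treat the libraries of a mouse as independent. Tissue region and population cannot be told apart in a comparison of a virus-labelled with an antibody-labelled population.

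When insulin or IGF1 binds its receptor, the receptor phosphorylates itself and the substrates IRS1 and IRS2, which recruit PI3 kinase and so activate Akt. GRB10 and GRB14 bind the activated receptors and restrain them, and GRB7 is the third member of that adaptor family. In the brain IGF1 comes from microglia and some neurons, among other cells, and IGFBP2 is among the binding proteins that carry it outside cells.

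The 58 libraries used held 13346143 to 134703744 counts, in 3 batches, which the study numbers by animal in its list of samples, and a count of 0 allowed up to 3 counts, or 0.0223 to 0.225 CPM (counts scaled to a library total of 1000000). The submitters' labels call the virus-labelled populations excitatory and inhibitory neurons, and markers of other cells stood far above those of neurons. The 6 markers of excitatory neurons summed to a median of 128 CPM (27.3 to 448) in the CaMKII positive libraries, 39.2 (13.2 to 1576) in the ACSA2-positive, 33.6 in the double-positive and 23.5 in the CD11b-positive libraries, and the 6 of inhibitory neurons to medians of 9.56, 5.70, 1.67 and 0.758 CPM in the same order. Slc17a7, a marker of excitatory neurons, stood at 12.4 ± 11.2 CPM (SD, n = 10) in the CaMKII positive libraries and Gad1, a marker of inhibitory neurons, at 0.724 ± 0.545 CPM (n = 16) in the double-positive libraries. The astrocyte marker Slc1a2 stood at 11229 CPM in the CaMKII positive libraries and the microglia marker Csf1r at 5777 CPM in the double-positive libraries, where 6 microglia markers summed to 18884 CPM, against 22938 CPM in the CD11b-positive libraries. The 6 endothelial markers Cldn5, Flt1, Pecam1, Cdh5, Tek and Slco1a4 summed to 5291 CPM in the CaMKII positive libraries, 653 in the ACSA2-positive, 122 in the double-positive and 83.3 in the CD11b-positive libraries. The populations are therefore called by their gates. In sorted bulk samples fewer cells of a type and less RNA per cell cannot be told apart.

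**Figure D1:**
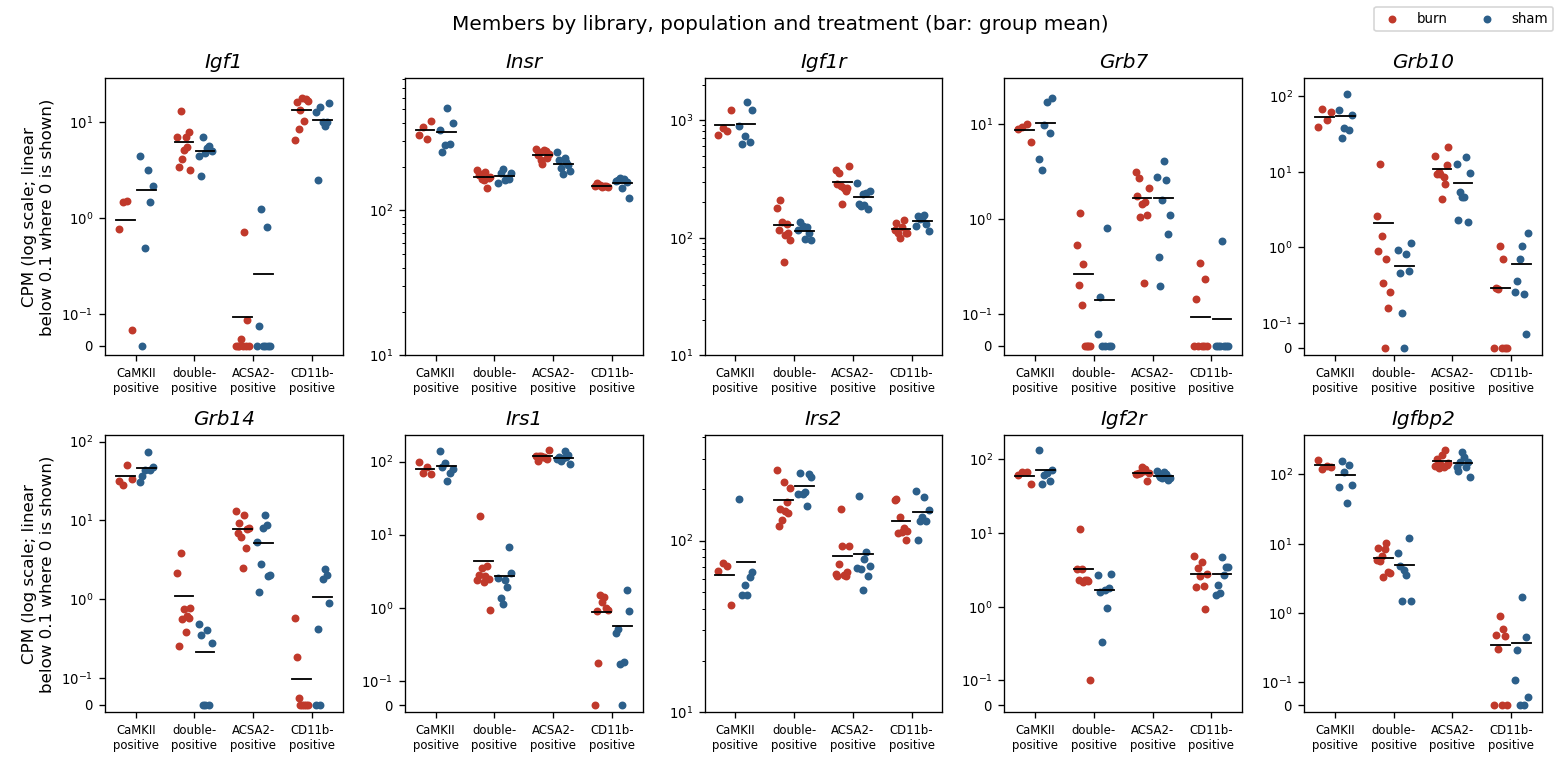
CPM of the 10 genes in each of the 58 libraries (y axis, log scale; linear below 0.1 in the panels that show 0), by population (x axis) and treatment (red, burn; blue, sham; bar, group mean). Grb7, Grb10 and Grb14 were highest in the CaMKII positive libraries and low in the double-positive and CD11b-positive libraries, Igf1 was highest in the CD11b-positive libraries, and burn and sham points overlap in every panel and population.

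The promoters of Grb14 and Igf1 are shown because Grb14 was highest in the CaMKII positive and Igf1 in the CD11b-positive libraries. RefSeq promoter windows, of build GRCm38.p6, matched 8 of the 10 genes, and the 250 bases before the annotated start were read 5′ to 3′ on the strand of the gene. The 3 motifs were searched on both strands: the GC box GGGCGG, the purine core GAGGAA bound by factors of the ETS family, and the TATA box TATAAA. Among 32851 windows of the same length, 32.7% held the GC box, 23.3% the purine core and 12.4% the TATA box. Capitals mark the matches. The Grb14 window lies at chr2:65022767-65023016 on the minus strand and the Igf1 window at chr10:87860861-87861110 on the plus strand.
Grb14: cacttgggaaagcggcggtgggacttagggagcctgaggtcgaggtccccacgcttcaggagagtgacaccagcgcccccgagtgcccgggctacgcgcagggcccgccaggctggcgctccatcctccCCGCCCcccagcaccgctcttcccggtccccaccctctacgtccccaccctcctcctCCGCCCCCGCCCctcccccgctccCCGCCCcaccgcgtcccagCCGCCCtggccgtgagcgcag
Igf1: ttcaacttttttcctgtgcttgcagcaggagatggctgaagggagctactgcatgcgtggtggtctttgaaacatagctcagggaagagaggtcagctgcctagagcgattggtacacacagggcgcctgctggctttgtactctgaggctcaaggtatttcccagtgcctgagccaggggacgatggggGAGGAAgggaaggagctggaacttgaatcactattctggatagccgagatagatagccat
The Grb14 window held 5 GC boxes in either orientation, 24 CpG dinucleotides and 75.2% G or C. The Igf1 window held no GC box, 1 purine core, 5 CpG dinucleotides and 52.8% G or C, against medians of 6 CpG dinucleotides and 52.4% over all windows. Neither held a TATA box. The first Grb10 window held 5 GC boxes and 40 CpG dinucleotides, the second Grb10 window 0 and 8, and the Igf1r window 2 and 42. These matches describe the letters of the windows and say nothing about binding.

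Across the populations the genes fell into a few orders. CPM does not allow for gene length, so genes are compared per kilobase of exon. Per kilobase, Igfbp2 led in the ACSA2-positive libraries (81.2 ± 19.5 CPM per kb, SD, n = 17) and the CaMKII positive libraries (60.8 ± 22.2, n = 10). Irs2 led in the double-positive libraries (29.6 ± 6.84, n = 16) and the CD11b-positive libraries (21.8 ± 4.76, n = 15). Insr stood between 11.0 and 25.6 CPM per kb in all 4 populations, and the 3 adaptors ranked seventh to ninth of the 10 genes in the CaMKII positive libraries and in the ACSA2-positive libraries, above Igf1 alone.

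The ligand Igf1 was the one gene of the 10 that was highest in the CD11b-positive libraries. It ran from 2.51 through a median of 12.6 to 17.8 CPM in the 15 CD11b-positive libraries, from 2.73 through 5.21 to 13.1 in the 16 double-positive libraries, from 0 through 1.46 to 4.43 in the 10 CaMKII positive libraries, and from 0 through 0 to 1.23 in the 17 ACSA2-positive libraries. Igf1 was counted in every CD11b-positive and double-positive library but in only 6 of the 17 ACSA2-positive libraries. It was lower in ACSA2-positive than in CD11b-positive cells by a log2FC of -6.52 (SE 0.71, p.adj = 6.01e-10, lower in 15 of 15 mice with both libraries), in edgeR's quasi-likelihood test with batch and treatment as terms. It was also lower in CaMKII positive than in double-positive cells, by -2.40 (SE 0.52, p.adj = 0.000292, 9 of 9 mice), and in double-positive than in CD11b-positive cells, by -1.004 (SE 0.19, p.adj = 0.000258, lower in 11 of 14 mice). The last of these stood at the threshold for the fold change and was not called with DESeq2 size factors (-0.99), with DESeq2 (-0.99), with library size only (-0.94) or in the sham mice alone (-0.86). In the sham mice alone the difference between CaMKII positive and double-positive cells was not called either (-2.08). Set against ACSA2-positive cells, the CaMKII positive cells held more Igf1, by 3.71 (SE 1.22, p.adj = 0.0213, higher in 9 of 10 mice), a call that was lost in batch 3 alone (2.79) and in the sham mice alone (3.61). The 6 microglia markers summed to 873 CPM in the CaMKII positive and 84.5 CPM in the ACSA2-positive libraries, and their part in this difference was not tested. The neighbouring ranges of the 4 populations overlapped.

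The other ligands were scarce. Ins1 was at 0 in all 58 libraries, and Ins2 was counted in 1 CaMKII positive and 1 ACSA2-positive library. Igf2, the second insulin-like growth factor, had a mean of 0.179 CPM in the ACSA2-positive and 0.0210 CPM in the CD11b-positive libraries. It was called between those populations (log2FC 3.04, SE 1.07, p.adj = 0.012), and neither with the mouse as a block (2.82) nor in batch 3 alone (2.27). Igf2 was not called between CaMKII positive and double-positive cells (1.41, SE 1.25), CaMKII positive and ACSA2-positive cells (-0.60, SE 1.28) or double-positive and CD11b-positive cells (0.96, SE 1.05).

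Both receptors were measured in every library. Insr ran from 252 through 346 to 509 CPM in the CaMKII positive libraries, from 179 through 228 to 264 in the ACSA2-positive, from 143 through 169 to 193 in the double-positive and from 122 through 150 to 167 in the CD11b-positive libraries. Its populations lay close together, and it did not reach the fold threshold in any of the 4 comparisons (log2FC 0.14 to 0.78). Its adjusted p was at most 0.05 in all 4, from 1.11e-12 to 0.028. Igf1r spread more widely. It ran from 631 through 830 to 1413 CPM in the CaMKII positive libraries and from 175 through 251 to 406 CPM in the ACSA2-positive libraries, which did not overlap. In the CD11b-positive libraries it ran from 99.4 through 126 to 157 CPM and in the double-positive libraries from 62.3 through 117 to 209 CPM. Igf1r was higher in CaMKII positive than in double-positive cells by 2.73 (SE 0.17, p.adj = 4.73e-14) and than in ACSA2-positive cells by 1.68 (SE 0.15, p.adj = 1.72e-10), and higher in ACSA2-positive than in CD11b-positive cells by 1.09 (SE 0.10, p.adj = 6.44e-12). Its difference between double-positive and CD11b-positive cells was -0.13 (SE 0.09, p.adj = 0.35). The difference between the antibody-labelled populations was under a log2FC of 1 in the sham mice alone (0.76) and in batch 3 alone (0.92).

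All 3 adaptors were highest in the CaMKII positive libraries, next in the ACSA2-positive libraries and low in the double-positive and CD11b-positive libraries, whose order was not resolved. In sham mice Grb14 averaged 1.08 CPM in the CD11b-positive and 0.217 CPM in the double-positive libraries, and in burn mice 0.0985 and 1.11 CPM. The CD11b-positive means come from the libraries that chose Grb14, with burn mouse 2 at 0.575 CPM. The double-positive burn mean takes in batch 1, which had burn libraries only, with mouse 10 at 3.91 CPM, and the burn median was 0.607 CPM. Grb14 ran from 28.3 through 40.1 to 74.9 CPM in the CaMKII positive libraries, from 1.256 through 6.96 to 13.3 in the ACSA2-positive, from 0 through 0.444 to 3.91 in the double-positive and from 0 through 0.0253 to 2.42 in the CD11b-positive libraries. Grb10 ran from 27.7 through 52.0 to 108 CPM, from 2.15 through 9.30 to 21.5, from 0 through 0.594 to 12.5 and from 0 through 0.278 to 1.54 CPM in the same populations. Grb7 was the lowest of the 3 adaptors on the CPM scale and per kilobase in all 4 populations, with medians of 9.05, 1.53, 0.0186 and 0 CPM. No CaMKII positive library overlapped an ACSA2-positive library in Grb14 or Grb10, and for Grb7 the ranges overlapped.

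The adaptors were higher in CaMKII positive than in double-positive cells, Grb14 by 6.15 (SE 0.52, p.adj = 4.21e-11), Grb10 by 6.06 (SE 0.59, p.adj = 8.46e-10) and Grb7 by 5.40 (SE 0.78, p.adj = 1.14e-06), each in 9 of 9 mice. Set against ACSA2-positive cells they were higher in the CaMKII positive cells by 2.45 (SE 0.29, Grb14), 2.42 (SE 0.29, Grb10) and 2.24 (SE 0.39, Grb7), each in 10 of 10 mice and with p.adj from 6.73e-08 to 3.37e-05. Between ACSA2-positive and CD11b-positive cells Grb10 and Grb7 were higher in the ACSA2-positive cells by 4.56 (SE 0.55, p.adj = 5.22e-09) and 4.52 (SE 0.78, p.adj = 4.54e-06), each in 15 of 15 mice. For Grb14, whose low burn counts in the CD11b-positive libraries chose it, the log2FC there was 4.22 over all mice and 2.73 in the sham mice alone, with no test, and its ACSA2-positive value was the higher in 14 of 15 mice. Between double-positive and CD11b-positive cells Grb10 and Grb7 were not called, the 3 adaptors had log2FC from 0.83 to 1.16 and SE of at least 0.82, and their direction turned with the libraries used. In the sham mice alone the log2FC was -0.27 for Grb10, and in batch 3 alone it was -0.12 for Grb7 and -0.40 for Grb10. For Grb14 it was -2.76 in the sham mice alone, a description, since its burn and sham CD11b-positive counts chose the gene. The 6 endothelial markers were likewise highest in the CaMKII positive, next in the ACSA2-positive and low in the double-positive and CD11b-positive libraries (5291, 653, 122 and 83.3 CPM summed), and their part in the differences was not tested.

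**Figure D2:**
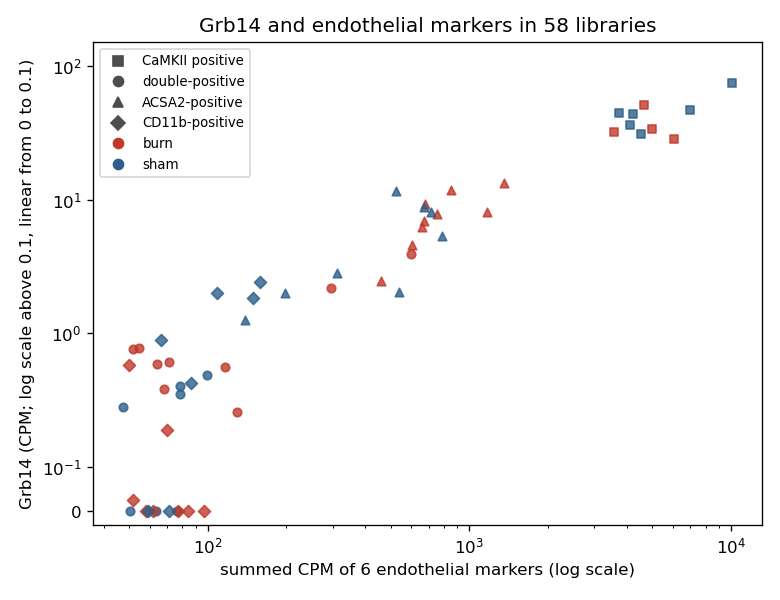
Grb14 (y axis, CPM; log scale, linear below 0.1) against the summed CPM of 6 endothelial markers (x axis, log scale) in 58 libraries, by population (shape) and treatment (colour). The CaMKII positive libraries lie at the upper right (28.3 to 74.9 CPM of Grb14), the ACSA2-positive libraries in the middle and most double-positive and CD11b-positive libraries at the lower left.

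Among 22315 genes with at least 10 counts in each population, the genes whose log2 CPM followed Grb14 most closely over the 58 libraries were Arhgef15 (Pearson's r = 0.936), Itga1 (0.935) and Cav1 (0.931). For Insr they were Mprip (0.929), Pnpla6 (0.924) and Ccser2 (0.921), and for Igf1 Rock2 (0.919), Erbin (0.919) and Dusp7 (0.916). The 58 points share mice, batches and 4 population levels, so these values mainly describe the order of the populations. Arhgef15 stood at 114 CPM in the CaMKII positive, 16.4 in the ACSA2-positive, 2.30 in the double-positive and 1.45 in the CD11b-positive libraries.

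The 2 substrates had unlike orders. Irs1 ran from 93.8 through 115 to 143 CPM in the ACSA2-positive, from 54.5 through 81.4 to 139 in the CaMKII positive, from 0.926 through 2.48 to 18.1 in the double-positive and from 0 through 0.893 to 1.73 in the CD11b-positive libraries. Irs2 ran from 121 through 186 to 256 CPM in the double-positive, from 101 through 131 to 195 in the CD11b-positive, from 51.7 through 68.9 to 182 in the ACSA2-positive and from 42.0 through 63.5 to 174 in the CaMKII positive libraries. Thus the populations with the lowest Irs1 were those with the highest Irs2. Irs1 was higher in ACSA2-positive than in CD11b-positive cells by 7.45 (SE 0.30, p.adj = 1.15e-21) and in CaMKII positive than in double-positive cells by 4.34 (SE 0.32, p.adj = 3.69e-12). Irs2 was lower in those comparisons, by -0.79 (SE 0.13, p.adj = 2.82e-06, under the fold threshold) and -1.79 (SE 0.18, p.adj = 1.22e-09). Irs1 was higher in double-positive than in CD11b-positive cells by 2.24 (SE 0.49, p.adj = 0.0014), by 1.61 in batch 3 alone, and not called in the sham mice alone (2.18). On the opposite strand, Gm9747 covers 30.9% of the exon bases of Irs1 and 9530052E02Rik 2.56% of those of Irs2, in the GENCODE M21 annotation. The strand setting of the counting is not given in the sources used here, so reads of these genes cannot be told apart from those of their antisense partners.

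Igf2r, which clears IGF2 and carries lysosomal enzymes, ran from 45.6 through 63.0 to 132 CPM in the CaMKII positive and from 51.5 through 63.9 to 78.0 in the ACSA2-positive libraries, which overlapped. It ran from 0.937 through 2.66 to 4.85 CPM in the CD11b-positive and from 0.103 through 2.25 to 11.3 in the double-positive libraries. Igfbp2 ran from 91.7 through 142 to 229 CPM in the ACSA2-positive, from 38.6 through 125 to 160 in the CaMKII positive, from 1.48 through 5.26 to 12.0 in the double-positive and from 0 through 0.295 to 1.73 in the CD11b-positive libraries. Igfbp2 had the highest fold of the 10 genes between the antibody-labelled populations, a log2FC of 8.83 (SE 0.36, p.adj = 1.8e-21), and Igf2r differed there by 4.60 (SE 0.17, p.adj = 2.25e-22). The CaMKII positive cells exceeded the double-positive cells in Igf2r by 4.70 (SE 0.35) and in Igfbp2 by 4.16 (SE 0.30). Igfbp2 was also higher in double-positive than in CD11b-positive cells, by 3.92 (SE 0.52, p.adj = 1.4e-06, 14 of 14 mice). The 6 astrocyte markers summed to 921 ± 308 CPM (SD, n = 16) in the double-positive and 250 ± 42.2 CPM (SD, n = 15) in the CD11b-positive libraries, and their part in this difference and in that of Irs1 was not tested.

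In all, 8 of the 10 genes, Grb14 among them by the same thresholds and so 7 without it, were called between ACSA2-positive and CD11b-positive cells, with p.adj not above 0.05 and log2FC of 1 or more in either direction, where 54.2% of all 30983 genes tested were called. Of them 7 were higher in ACSA2-positive cells (32.4% of all genes) and Igf1 was lower (21.8%). Between CaMKII positive and double-positive cells 9 were called (45.8% of all genes), 7 higher (26.4%) and 2 lower (19.4%). Between CaMKII positive and ACSA2-positive cells 5 were called, all higher (among all genes 16.2% called, 12.7% higher and 3.5% lower). Between double-positive and CD11b-positive cells 3 were called (7.58% of all genes), 2 higher (5.6%) and 1 lower (1.98%). The median log2FC of the 10 genes was 4.37, 4.25, 1.08 and 0.64 in these comparisons, against 0.28, 0.05, 0.00 and 0.09 over all genes. Scaling by library size alone moved the median of all genes by 0.25 between CaMKII positive and double-positive cells and by 0.16 between CaMKII positive and ACSA2-positive cells. Under that scaling no called gene changed its direction and Insr passed the fold threshold between CaMKII positive and double-positive cells (log2FC 1.03), while Igf1 fell short of it between double-positive and CD11b-positive cells (-0.94). With the mouse as a block the numbers called were 8, 9, 5 and 3 again, where 46.5%, 35.5%, 11.1% and 3.88% of all genes were called. With no minimum fold they were 10, 10, 8 and 5, where 69.7%, 59.9%, 29.9% and 17.6% of all genes passed. All these counts and medians against CD11b-positive cells cover Grb14 too, as a description.

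**Figure D3:**
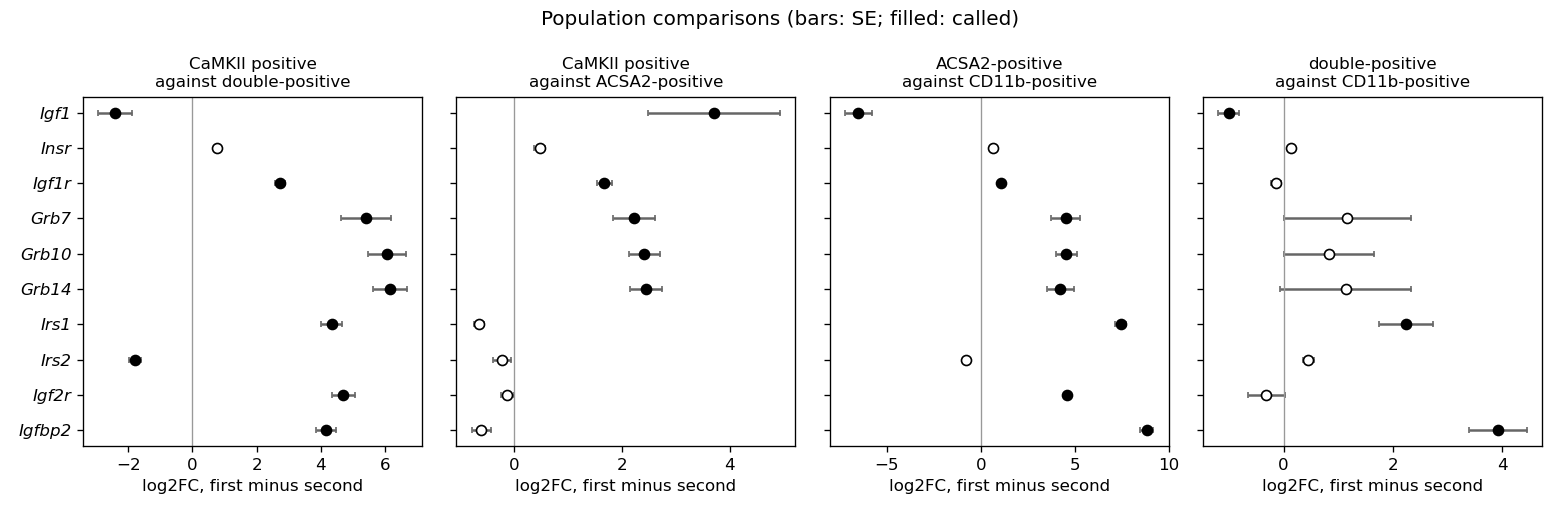
log2FC of the 10 genes in 4 comparisons of populations (x axis, the population named first minus the one named second; each panel has its own scale; bars, SE; filled points, past both thresholds, a description for Grb14 where CD11b-positive cells enter). The adaptors lie between 5.40 and 6.15 for CaMKII positive against double-positive cells, and Igf1 lies below 0 in all panels but that of CaMKII positive against ACSA2-positive cells.

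The rest of the pathway was read from 72 further genes in 6 lists, of which 65 to 68 were tested, according to the comparison. Between ACSA2-positive and CD11b-positive cells 25 were higher and 20 lower in ACSA2-positive cells, so 66.2% of the 68 tested were called, where 54.2% of all genes were. Of 12 genes of PI3 kinase and Akt 3 were higher and 5 lower, led by Pik3cg (log2FC -9.04, SE 0.42) and Pik3r5 (-7.50, SE 0.28), the catalytic and a regulatory subunit of PI3 kinase gamma. Of 13 genes that brake the pathway 5 were higher and 6 lower, led by Ptprf, a receptor phosphatase (7.89, SE 0.32), and Inpp5d, the lipid phosphatase SHIP1 of blood cells and microglia (-7.36, SE 0.21). Of the 12 substrates and docking proteins tested 3 were higher and 5 lower, led by Dok5 (8.07, SE 0.50) and Shc3 (6.95, SE 0.22). Of the 10 binding proteins and their proteases tested 7 were higher and 1 lower, led by Igfbp5 (6.90, SE 0.28) and Igfbp7 (5.22, SE 0.54). Of 18 downstream kinases, transporters and transcription factors 5 were higher and 2 lower, led by the insulin-responsive glucose transporter Slc2a4 (6.91, SE 0.61) and Foxo6 (4.49, SE 0.76). Of the 3 other ligands and receptors tested 2 were higher, with Igf2 named above, and 1, Insrr, an orphan relative of the insulin receptor, was lower (-2.54, SE 0.95). Insrr averaged 0.0531 CPM in CD11b-positive and 0.00166 CPM in ACSA2-positive libraries, and it was not called with the mouse as a block (-0.89), with DESeq2 (-2.17), in batch 3 alone (-2.73) or in the sham mice alone (-3.65). The median over the 68 genes tested was -0.02, against 0.28 over all genes.

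Between CaMKII positive and double-positive cells 23 of the pathway genes were higher and 14 lower (54.4% of 68 called, against 45.8% of all genes). Pik3cg (-4.58, SE 0.25), Pik3r5 (-3.93, SE 0.18) and Inpp5d (-4.07, SE 0.17) were again lower in the population with fewer microglia markers, and Igfbp7 (6.47, SE 0.49), Stc2 (5.38, SE 1.16), Dok5 (4.80, SE 0.48), Shc3 (4.76, SE 0.26), Nedd4 (5.04, SE 0.29), Slc2a4 (4.60, SE 0.69), Foxo6 (4.60, SE 1.18) and Sorl1 (1.21, SE 0.12) were higher. Between CaMKII positive and ACSA2-positive cells 20 were higher and 2 lower (32.4% of 68 called, against 16.2% of all genes). The lists were led by Igfbp6 (5.57, SE 0.80), Pik3cg (4.21, SE 0.52), Pik3r5 (3.42, SE 0.42), Inpp5d (3.21, SE 0.23), Trib3 (3.17, SE 0.95), Igfbp3 (2.99, SE 0.76), Dok4 (2.42, SE 0.30), Tbc1d4 (2.10, SE 0.20) and Sh2b3 (1.89, SE 0.13), and Slc2a4 was lower (-1.53, SE 0.28). Trib3 (3.63) and Igfbp3 (2.69) were not called in the sham mice alone. The 6 microglia markers summed to 873 CPM in the CaMKII positive and 84.5 CPM in the ACSA2-positive libraries, and their part in these values was not tested. Between double-positive and CD11b-positive cells 6 were higher and 0 lower (8.96% of 67 called, against 7.58% of all genes): Dok5 (3.07, SE 1.04), Igfbp5 (2.93, SE 0.55), Igfbp6 (2.73, SE 0.79), Ptprf (2.33, SE 0.45), Shc3 (1.32, SE 0.33) and Nedd4 (1.23, SE 0.28). With the mouse as a block Nedd4 was not called (0.91), and DESeq2 gave no adjusted p for Igfbp5 (2.87). In batch 3 alone Dok5 (2.86), Igfbp6 (3.41), Shc3 (1.06) and Nedd4 (0.50) were not called, Igfbp5 was 1.82 and Ptprf 1.597. Without the double-positive library of mouse 10 Igfbp6 (1.95) and Nedd4 (0.89) were no longer called, Igfbp5 was 2.24, and 4 genes were called (7.42% of all genes), and in the sham mice alone 0 were (1.42% of all genes). There the 6 astrocyte markers summed to 921 and 250 CPM, and their part was not tested either.

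None of the 10 genes was called between burn and sham in CaMKII positive, double-positive or ACSA2-positive cells by edgeR, and 0 genes of 26707 to 28107 were called in all (0.0% in each population). With no filter on low counts edgeR called 14 genes in double-positive and 4 in ACSA2-positive cells, and with all deposited libraries 136 in double-positive cells, all lower in burn, with none of the 10 among them. At an unadjusted p under 0.05 the fits held 1096 genes in CaMKII positive, 1872 in double-positive and 2984 in ACSA2-positive cells (3.9%, 7.01% and 10.7%), of which 0, 0 and 1 were among the 10. DESeq2 called 3, 2 and 27 genes in these populations (0.0107%, 0.00749% and 0.0967%), and again none of the 10. The burn and sham ranges of CPM overlapped for all 10 genes in each population. Among all genes, 0.37% of those tested in CaMKII positive, 0.0% in double-positive, 0.0143% in ACSA2-positive and 0.0153% in CD11b-positive libraries had ranges that did not overlap.

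**Figure D4:**
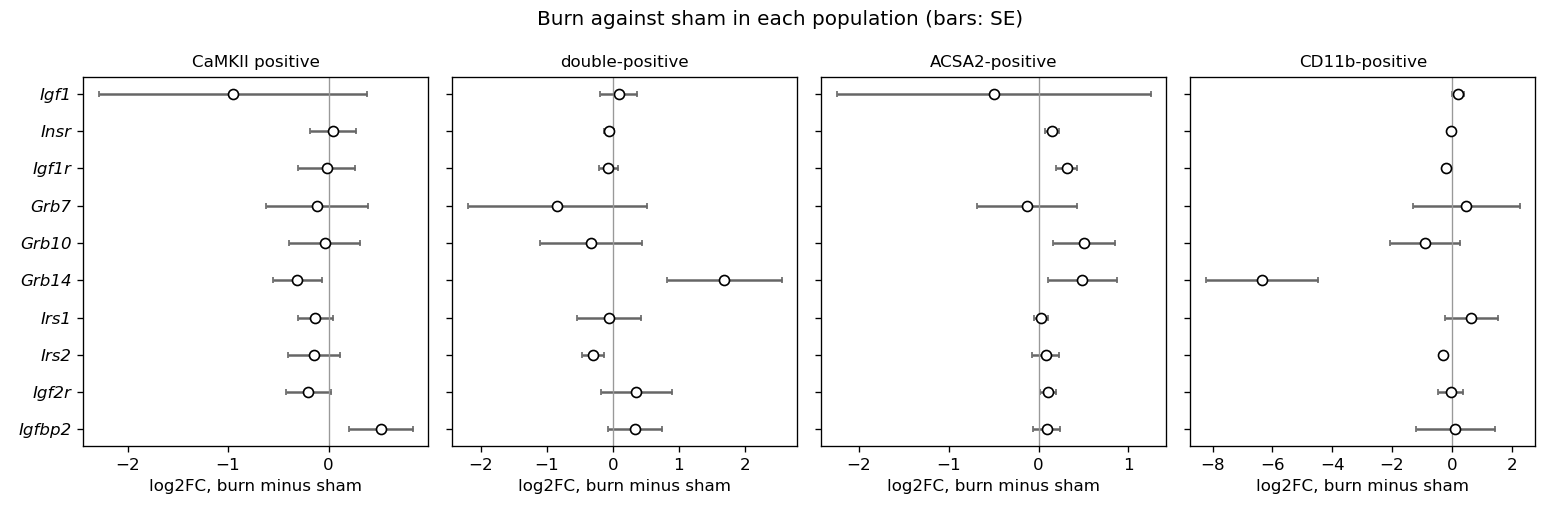
log2FC of the 10 genes in burn against sham mice in each population (x axis, burn minus sham; each panel has its own scale; bars, SE; open points, not called or, in CD11b-positive cells, not tested). Most genes lie within 1 SE of 0. Grb14 lies at 1.69 in double-positive and at -6.34 in CD11b-positive cells, the latter being the contrast in which it was chosen.

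In ACSA2-positive cells the receptor Igf1r had the smallest p of the 30 values tested over 3 populations. It ran from 195 through 273 to 406 CPM in 9 burn mice and from 175 through 215 to 291 CPM in 8 sham mice, a log2FC of 0.31 (SE 0.11, edgeR p.adj = 0.458). The burn libraries lay higher on average, and the groups overlapped. Within batch 3 its means were 276 CPM in 5 burn and 218 CPM in 5 sham libraries, within batch 1 340 CPM in 3 burn libraries and 291 CPM in 1 sham library, and within batch 2 273 CPM in 1 burn library and 189 CPM in 2 sham libraries. Insr stood at 243 ± 18.9 CPM (SD, n = 9) in burn and 210 ± 23.9 CPM (n = 8) in sham mice (log2FC 0.15, SE 0.08, p.adj = 0.506). Grb14 ran from 2.46 through 7.72 to 13.3 CPM in burn and from 1.256 through 4.08 to 11.7 CPM in sham mice (0.49, SE 0.38, p.adj = 0.737), and Grb10 from 4.31 through 9.40 to 21.5 CPM and from 2.15 through 4.999 to 15.8 CPM (0.50, SE 0.35, p.adj = 0.677). The endothelial markers summed to 801 ± 286 CPM in the burn and 486 ± 243 CPM in the sham libraries, and their part in these values was not tested. Irs1 (log2FC 0.03, SE 0.08), Irs2 (0.08, SE 0.15), Igf2r (0.11, SE 0.09) and Igfbp2 (0.09, SE 0.15) had small differences, and Igf1 (-0.50, SE 1.75) and Grb7 (-0.13, SE 0.55) had wide errors.

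In double-positive cells Grb14 was counted in 9 of 9 burn and 4 of 7 sham libraries. It ran from 0.256 through 0.607 to 3.91 CPM in the burn mice and from 0 through 0.280 to 0.483 CPM in the sham mice, a log2FC of 1.69 (SE 0.87, edgeR p.adj = 0.737). Burn libraries were mostly higher and the groups overlapped. In batch 3 the 5 burn libraries held 0.381 to 0.771 CPM and the 5 sham libraries 0 to 0.405 CPM, with counts in 2 of them. In batch 2 the 1 burn library held 0.558 CPM and the 2 sham libraries 0.350 and 0.483 CPM. Batch 1 held burn libraries only, which could hardly enter the log2FC with batch as a term. Irs2 stood at 172 ± 44.9 CPM (n = 9) in burn and 207 ± 34.0 CPM (n = 7) in sham mice (-0.30, SE 0.16, p.adj = 0.762). Igf1 ran from 3.14 through 5.51 to 13.1 CPM in burn and from 2.73 through 4.93 to 7.04 CPM in sham mice (0.09, SE 0.28). The other genes had log2FC from -0.84 (Grb7, SE 1.35) to 0.36 (Igf2r, SE 0.53). Grb7 turned to 2.48 without the sham library of mouse 17, and Grb10 went from -0.33 to 1.85 with no batch term.

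The double-positive library of mouse 10, a burn mouse of batch 1, stood apart. It held the highest value of the 16 double-positive libraries for Grb7, Grb10, Grb14, Igf1r, Igf1, Irs1 and Igf2r. Its Grb10 was 12.5 CPM against at most 2.57 CPM in the other 15, its Irs1 18.1 against at most 6.83 CPM and its Igf2r 11.3 against at most 3.31 CPM. It was also the highest of the 16 in the summed markers of 7 of the 12 cell types listed. Its fibroblast markers summed to 148 CPM against at most 12.9 CPM, its oligodendrocyte precursor markers to 151 against at most 45.9 and its oligodendrocyte markers to 302 against at most 94.9. Its endothelial markers summed to 600 CPM against at most 297, its border macrophage markers to 327 against at most 183, its excitatory neuron markers to 71.0 against at most 52.2 and its mural cell markers to 52.2 against at most 49.1. The part of these cells in its values was not tested. With batch as a term, batch 1, which held burn double-positive libraries only, could hardly move the burn against sham fit. So the log2FC of Grb14 there, 1.72 without mouse 10, does not show the weight of that library. The numbers called among the 10 genes were then 9 between CaMKII positive and double-positive cells and 3 between double-positive and CD11b-positive cells, as with it, where 45.2% and 7.42% of all genes were called.

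In CaMKII positive cells Grb14 stood at 31.9, 28.3, 50.9 and 33.6 CPM in the 4 burn libraries and from 31.0 through 44.0 to 74.9 CPM in the 6 sham libraries (log2FC -0.31, SE 0.24, edgeR p.adj = 1). Igfbp2 stood at 160, 121, 131 and 129 CPM in the burn libraries and from 38.6 through 90.3 to 159 CPM in the sham libraries (0.52, SE 0.32, p.adj = 1). Insr stood at 333, 377, 309 and 414 CPM against 252 through 323 to 509 CPM (0.04, SE 0.23), and Igf1r at 747, 851, 809 and 1215 CPM against 631 through 811 to 1413 CPM (-0.02, SE 0.28). The burn values lay inside the sham ranges of Insr and Igf1r. Sham mouse 17 held the highest Grb14, Insr, Igf1r and Grb10 of the 10 libraries and the highest endothelial sum, 10053 CPM against 3585 to 6988 CPM in the others, whose part was not tested. The burn effect of Grb14 differed between CaMKII positive and double-positive cells by -2.24 (SE 0.84, unadjusted p = 0.0134, p.adj = 0.613), which did not pass the test of the interaction. That test called 7 of 30693 genes (0.0228%) and none of the 10, and DESeq2 called 173 (0.564%). With the mouse as a block it called 0 (0.0%), in batch 3 alone 0, and without the double-positive library of mouse 10 it called 2.

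In CD11b-positive cells, the libraries in which Grb14 was chosen, its counts were few. The burn libraries of batch 1 held 26, 9 and 1 counts (0.575, 0.188 and 0.0253 CPM), and the 5 burn libraries of batch 3 held 0. The 1 sham library of batch 1 held 0 counts, that of batch 2 held 20 (0.421 CPM), and those of batch 3 held 0, 40, 40, 36 and 25 counts (0, 1.82, 2.42, 2.01 and 0.893 CPM). The sham libraries of batch 3 were thus higher than its burn libraries except that of mouse 15, whereas in batch 1 the sham library was at 0, with a floor of 0.0547 CPM, and 2 of the 3 burn libraries lay above that floor. Over batch 3 the sham libraries held 141 counts and the burn libraries 0, so the pooled level of Grb14 was at least 10.3-fold higher in the sham libraries, with 3 counts in each of the 5 burn libraries as the floor. This bound allows for counting error in the burn libraries alone, not for the spread between mice, and describes libraries that chose the gene. The sham library of mouse 15 was itself at 0. The fitted log2FC over all batches was -6.34 (SE 1.88), a value that depends on the prior count and is no bound, and without the batch term it was -3.23. Without the sham library of mouse 8, the only sham library of batch 1, it was -8.29. The edgeR fit called 0 of 26079 genes (0.0%), with 2036 (7.81%) at an unadjusted p under 0.05, and DESeq2 called 80 (0.307%), Grb14 among them. The gene was chosen on these libraries and nothing is read from this. The sham libraries of mice 16, 17 and 18, with the 3 highest Grb14 values, also held the 3 highest endothelial sums of the 15 (148, 159 and 108 CPM against 50.2 to 97.2 CPM), and their part in the result was not tested. The same 5 burn mice of batch 3 that held 0 counts of Grb14 in CD11b-positive cells held 7 to 18 counts in double-positive cells.

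**Figure D5:**
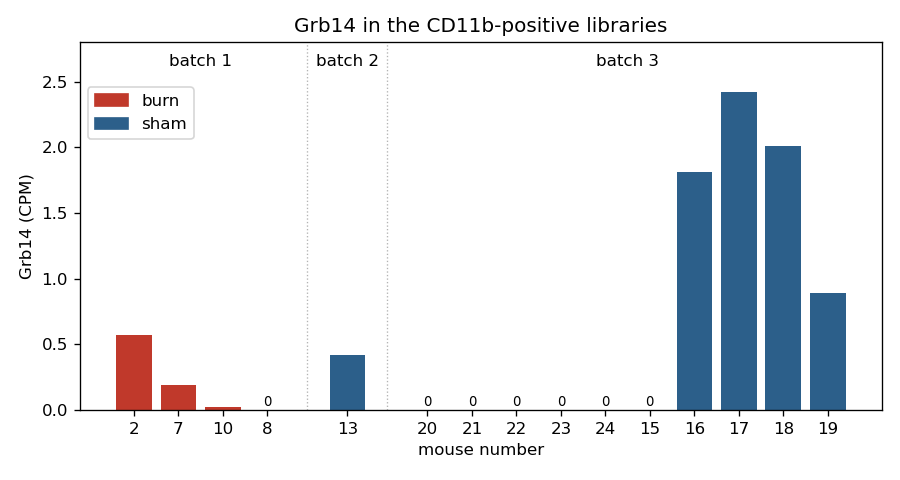
Grb14 in the 15 CD11b-positive libraries (y axis, CPM; x axis, mouse number within batch; red, burn; blue, sham; 0 marks libraries without a count). In batch 3 the 5 burn libraries are at 0 and 4 of the 5 sham libraries at 0.893 to 2.42 CPM, and in batch 1 the burn libraries are at 0.0253, 0.188 and 0.575 CPM and the sham library, whose floor is 0.0547 CPM, at 0.

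The other 9 genes in the CD11b-positive libraries are given as values only. Igf1 ran from 6.46 through 14.8 to 17.8 CPM in burn and from 2.51 through 10.1 to 15.6 CPM in sham mice (log2FC 0.20, SE 0.21). Insr stood at 148 ± 3.65 CPM (n = 8) and 154 ± 15.9 CPM (n = 7) (-0.04, SE 0.07). Igf1r ran from 99.4 through 113 to 143 CPM and from 113 through 144 to 157 CPM (-0.19, SE 0.09), and Irs2 from 101 through 117 to 176 CPM and from 102 through 137 to 195 CPM (-0.31, SE 0.10, and -0.15 without the batch term). The groups overlapped in all of these. Igf2r differed by -0.05 (SE 0.41), and Grb7, Grb10, Irs1 and Igfbp2, at means of at most 0.887 CPM in either group, had SE from 0.88 to 1.79. Without the sham library of mouse 16 the log2FC of Grb7 went from 0.48 to 4.50 and that of Igfbp2 from 0.12 to 1.56.

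Of the 72 further pathway genes 0 were called in burn against sham by edgeR in CaMKII positive, double-positive or ACSA2-positive cells, and 4 of 68, 4 of 67 and 4 of 67 had an unadjusted p under 0.05 (3.9%, 7.01% and 10.7% of all genes). Their median log2FC was -0.01, 0.05 and -0.01, against 0.02, 0.00 and 0.05 over all genes, and in CD11b-positive cells -0.03, against 0.00. Igf2 was tested in 3 populations, with log2FC of -1.46 (SE 3.07), -2.03 (SE 1.65) and -1.22 (SE 1.52) in CaMKII positive, double-positive and ACSA2-positive cells.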

How the data were processed

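Stranded total RNA libraries, depleted of ribosomal RNA and read as 150 bp pairs, were trimmed with fastp and aligned with STAR by the authors, who deposited raw counts per Ensembl gene for each population. The submitters' notes name both GRCm39 and mm10, and the strand setting of the counting is not given in the sources used here. Transformed, log2-like tables deposited by the authors were not used here. Genes were named for 52073 of 56980 IDs. The 10 genes and the 72 pathway genes were chosen with earlier results of these data known. Burn against sham was fitted in each population with batch and treatment as terms, and populations were compared with batch, treatment and population as terms, by edgeR 4.0.16 (TMM scaling, quasi-likelihood test) with R 4.3.3, on genes with at least 10 counts in all. SE is the absolute log2FC over the square root of F. P-values were adjusted over all genes tested by Benjamini-Hochberg, and calls needed both an adjusted p not above 0.05 and a log2FC of 1 or more in either direction. CPM is the count scaled to a library total of 1000000. Intervals and floors cover counting error only, since the reads carry no molecular identifiers. All 10 genes are named. Of each pathway list the genes named were those called with the highest absolute folds, and the ligands Igf2, Ins1 and Ins2 were named too. The scripts were tested on simulated data. No pair of the 1953 pairs of deposited libraries was identical. Equal mouse numbers mark the same animal, per the labels, so fits with the mouse as a block were run too. The median correlation of same-mouse deviations was 0.055 over 15 mice, 0.059 over 9, -0.010 over 10 and 0.048 over 14 in the 4 comparisons of populations. Alternatives were DESeq2 1.42.0, other scalings, filterByExpr or no count filter, no batch term, batch 3 alone, sham mice alone, all deposited libraries, no minimum fold, the block and leaving out each library. Leaving out the double-positive library of mouse 10 or the CaMKII positive library of mouse 2 from comparisons of populations was chosen after seeing the data.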

Additional observations from a re-analysis of the deposited data

Results flagged for a closer look

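In 17 of 80 groups of 4 to 10 libraries the highest or lowest value of a gene lay far from the others by Dixon's ratio of the gap to the range. Chance gives about 1 in 20 for independent, normal groups. Here several groups were mostly at 0, where 1 counted library stands out by construction, and groups share libraries, so no excess is read from this number. The double-positive library of burn mouse 10 gave 5 of these, with Grb7 at 1.17, Grb10 at 12.5, Igf1 at 13.1, Irs1 at 18.1 and Igf2r at 11.3 CPM. Among the double-positive sham libraries Grb7 stood at 0.809 CPM in mouse 17 (next 0.150) and Irs1 at 6.83 CPM in mouse 18 (next 2.97). Among the CaMKII positive sham libraries Grb14 stood at 74.9 CPM in mouse 17 (next 47.0), and Irs2 at 174 CPM (next 65.8) and Igf2r at 132 CPM (next 70.8) in mouse 8. In ACSA2-positive cells Irs2 stood at 153 CPM in burn mouse 11 (next 93.2) and at 182 CPM in sham mouse 12 (next 86.1), both of batch 2. There Igf1 stood at 0.717 CPM in burn mouse 21 (next 0.0813) and Irs1 at 143 CPM in burn mouse 24 (next 121). In CD11b-positive cells Grb14 stood at 0.575 CPM in burn mouse 2, a description since these libraries chose the gene, and in sham mouse 16 Grb7 stood at 0.590 CPM (0 in the others) and Igfbp2 at 1.73 CPM (next 0.447).

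The libraries of mouse 3, which enter no comparison, lay above every kept library of their population in 9 of 40 values. In ACSA2-positive cells these were Grb7 at 5.25, Grb10 at 21.9, Grb14 at 15.1, Insr at 297 and Igf1r at 531 CPM, against at most 4.09, 21.5, 13.3, 264 and 406 CPM. In CD11b-positive cells they were Igf1r at 158 and Igf2r at 21.6 CPM, against at most 157 and 4.85 CPM. In double-positive cells Irs2 stood at 271 CPM against at most 256, and in CaMKII positive cells Igfbp2 at 203 CPM against at most 160.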

How the results depend on the processing

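The 10 genes had 0 calls in burn against sham in CaMKII positive, double-positive and ACSA2-positive cells under each alternative run, leaving out each library included. In CD11b-positive cells, the contrast that chose Grb14, DESeq2 called 1, Grb14, from which nothing is read. Leaving out each library gave 0 calls among the pathway genes in the other 3 populations. Without a minimum fold the numbers called rose from 5 to 8 of the 10 genes and from 22 to 37 pathway genes between CaMKII positive and ACSA2-positive cells (29.9% of all genes called), from 3 to 5 and from 6 to 31 between double-positive and CD11b-positive cells (17.6%), and from 37 to 56 pathway genes between CaMKII positive and double-positive cells (59.9%). Between double-positive and CD11b-positive cells the sham mice alone gave 1 of the 10 and 0 pathway genes (1.42% of all genes), and batch 3 alone gave 3 pathway genes (3.81% of all genes), with fewer libraries. With the mouse as a block, 8, 9, 5 and 3 of the 10 genes were called in the comparisons of populations and 0 in the interaction, the same numbers as without it. Of all genes 46.5%, 35.5%, 11.1%, 3.88% and 0.0% were called there. The counts against CD11b-positive cells cover Grb14 as a description.

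The values that changed direction had not been called. In CaMKII positive burn against sham all deposited libraries gave Grb7 0.060, Grb10 0.072 and Igf1r 0.12, and batch 3 alone Grb10 0.16, Igf1r 0.049, Irs2 0.17 and Igf2r 0.044. In double-positive cells no batch term gave Grb7 0.80, Grb10 1.85, Igf1r 0.15 and Irs1 0.66, and all deposited libraries Insr 0.38, Igf1r 0.36, Irs1 0.13 and Irs2 0.16. In ACSA2-positive cells no batch term gave Grb7 0.0058 and Irs2 -0.087, and batch 3 alone Igf1 0.018. Between CaMKII positive and ACSA2-positive cells Igf2r was 0.055 with library size only and 0.030 in sham mice alone. Between double-positive and CD11b-positive cells batch 3 alone gave Grb7 -0.12 and Grb10 -0.40, and sham mice alone Grb10 -0.27. Grb14, chosen by its CD11b-positive burn and sham counts, was -2.76 there in sham mice alone, a description. The causes were not tested. Leaving out each library, the log2FC that changed direction ran in CaMKII positive cells from -0.42 to 0.11 (Grb7), -0.19 to 0.32 (Grb10), -0.040 to 0.21 (Insr), -0.17 to 0.16 (Igf1r), -0.33 to 0.17 (Irs2) and -0.31 to 0.038 (Igf2r). In double-positive cells they ran from -2.70 to 2.48 (Grb7), -0.83 to 0.052 (Grb10), -0.14 to 0.036 (Igf1r), -0.020 to 0.21 (Igf1) and -0.33 to 0.36 (Irs1). In ACSA2-positive cells they ran from -0.53 to 0.14 (Grb7), -2.78 to 3.31 (Igf1), -0.015 to 0.053 (Irs1) and -0.0072 to 0.18 (Igfbp2). In CD11b-positive cells, where values are descriptions, they ran from -0.29 to 4.50 (Grb7), -0.35 to 0.16 (Igf2r) and -0.32 to 1.56 (Igfbp2). The median of Grb7 in double-positive cells (0.0186 CPM) lay under the lowest floor of a library there (0.0557 CPM), and the medians of Grb7 (0) and Grb14 (0.0253 CPM) in CD11b-positive cells lay under the lowest floor there (0.0547 CPM).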
